A study of Saccharomyces cerevisiae with 37 samples.

Results

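The MMS-treated culture of budding yeast (Saccharomyces cerevisiae) was compared with both untreated cultures at time 0, just before transcription was shut off. The comparison used 6 of the 37 arrays of the series and 3 of its 4 cultures: 2 arrays of the DNA damage culture, 2 of reference 1 and 2 of reference 2. All cultures were of strain Y262, whose RNA polymerase II is temperature-sensitive, and were grown in YPD to mid-log phase at 26 °C. The DNA damage culture had been kept in 0.1% methyl methanesulfonate (MMS) for 40 min, and the references had no added stress. MMS is a chemical that methylates DNA bases. The labels name the pretreatment times together, and 40 min was read from the order in which the stresses are given. The 2 arrays of a culture are technical repeats, so there was 1 culture with MMS and 2 without, and the distance between the references was the only spread between cultures that could be measured. Each array reported mRNA copied from poly(T) primers on Affymetrix Yeast Genome 2.0 probe sets, of which 5449 genes are described here.

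Alkylated bases are removed by glycosylases such as Mag1 and then rebuilt by base excision repair, while lesions that stall replication activate the Mec1 and Rad53 checkpoint kinases, which raise the supply of deoxynucleotides. MMS also reacts with thiols, and budding yeast answers thiol-reactive and oxidising agents mainly through the transcription factor Yap1, whose targets include peroxide-reducing enzymes, glutathione enzymes, reductases and drug exporters. Iron supply is set by Aft1 and Aft2, which sense iron-sulfur clusters, and rapidly growing cells spend much of their transcription on making ribosomes, a programme that falls under many stresses.

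Levels are log2 values relative to the median gene of the same array, and a difference is the DNA damage culture minus the mean of the references unless a single reference is named. Genes were called at an adjusted p under 0.05 in limma, a linear model that shares its error estimate over all genes. Of 5449 genes, 94 were called higher with MMS (1.73%) and 89 lower (1.63%), and every one had the same sign against each reference. The called rises began at 0.93 and the called falls at −0.91. The MMS culture lay outside both references, by a gap larger than the distance between the references, in 691 genes on the high side (12.7%) and 1810 on the low side (33.2%). These included 92 of the called rises and 86 of the called falls. Only GPD1 and AIM17 among the rises, and RRP12, YBL100W-A and TRM11 among the falls, were not clear in this way (AIM17, YBL100W-A and TRM11 are named after their values were seen).

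The number of calls depended on how arrays were scaled. After centring each array on its median gene, the median difference was still −0.181 (−0.145 against reference 1 and −0.18 against reference 2, with reference 1 minus reference 2 at −0.031), so group medians below are to be read beside that value. Higher and lower calls numbered 108 and 139 on values as deposited, 57 and 10 with arrays scaled to spike-in controls, 159 and 46 with the median difference set to 0, and 22 and 1 after cyclic loess, which removes differences that follow brightness. Of the calls, 22 higher genes and 1 lower gene, CYB5, were made under centring and under all 4 of these scalings. Quantile normalization called 0 genes in limma (lowest adjusted p = 0.0892, with 390 higher and 348 lower at an unadjusted p under 0.05), and in it all 94 higher and all 89 lower genes kept their direction. Leaving out an array of reference 1 gave 61 and 32 calls without its first array and 49 and 24 without its second. Lower calls numbered 49 and 34 without the first and the second array of reference 2.

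**Figure D1:**
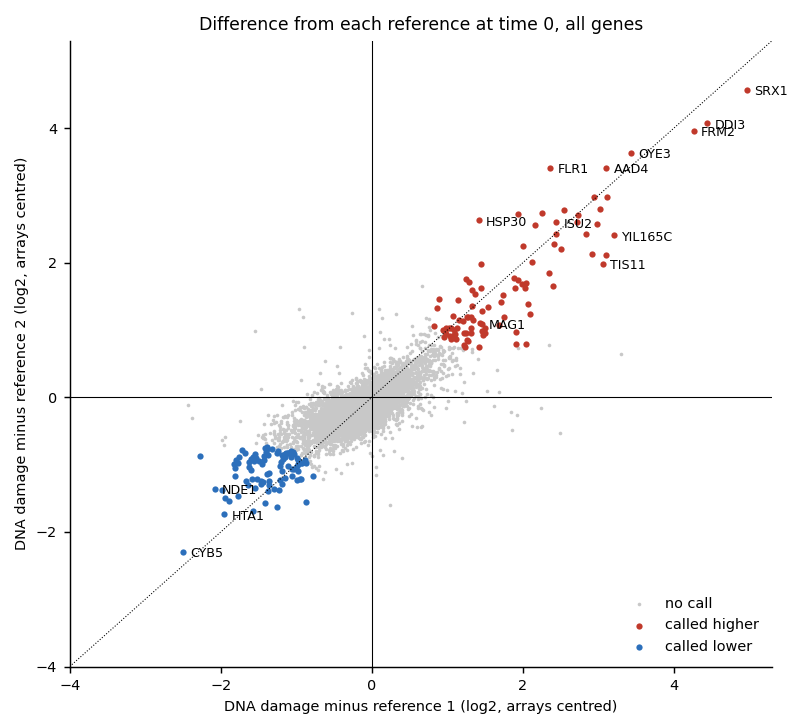
Difference of the DNA damage culture from reference 1 (x axis) and from reference 2 (y axis) for each of 5449 genes, in log2 with each array centred on its median gene; red points were called higher (94 genes), blue points lower (89), and the dotted line marks equal differences. The called genes lie at the upper right and lower left, and SRX1 stands farthest out at 4.97 and 4.57.

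Brightness and RNA ends differed between the cultures too. In eighths of genes by mean level, the median difference was −0.323 in the dimmest, −0.021 in the fourth and −0.445 in the brightest. Probe sets for the 5′ end of yeast control mRNAs, compared with those for the 3′ end of the same mRNA, were lowest with MMS in 10 of 11 pairs. The pairs are not independent, since ACT1, SRB4 and SPT15 were each read by more than a single pair. The ACT1 pairs disagreed, with 5′ minus 3′ differences from the references of 0.013 and −0.198. The median 5′ minus 3′ value was −1.229 with MMS, against −0.893 in reference 1 and −1.001 in reference 2. For WBP1 it was −1.884 with MMS, against −0.893 in reference 1 and −1.47 in reference 2. In bacterial poly-A RNAs the value was lowest with MMS in 9 of 12 pairs (median −1.084, against −0.592 in reference 1 and −0.921 in reference 2), and in hybridisation controls in 2 of 12. The poly-A pairs repeat the same RNAs, dap, lys, phe and thr. The part of these offsets in the gene differences was not tested.

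**Figure D2:**
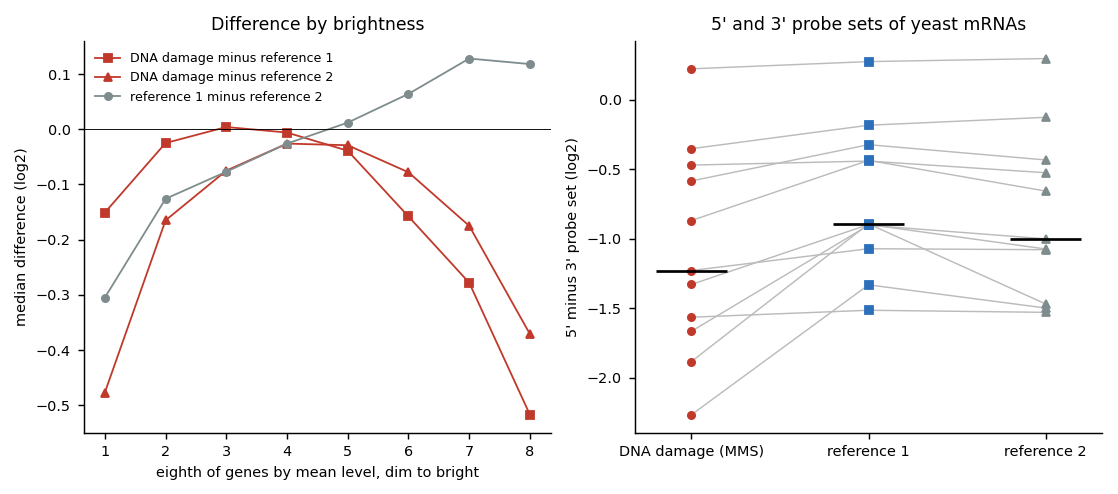
Left, median difference in log2 for eighths of genes ordered from dim to bright, against reference 1 (squares), against reference 2 (triangles) and between the references (circles); right, 5′ minus 3′ probe set value in log2 for 11 pairs of yeast mRNA probe sets in each culture, with lines joining a pair and bars at the medians. Both MMS curves bend down at the dim and bright ends, reaching −0.517 and −0.371 in the brightest eighth, and the 5′ minus 3′ median is lowest with MMS.

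Technical arrays differed little in the pattern of genes: the SD over genes of the difference between arrays of a culture was 0.059 with MMS, 0.08 in reference 1 and 0.058 in reference 2. The SD over genes was 0.536 for MMS minus reference 1, 0.427 for MMS minus reference 2 and 0.331 between the references. Reference 2 was the nearer of the pair, with 140 genes more than 1 log2 from it in either direction, against 329 from reference 1. The references differed from each other by that much in 57 genes. Mating type genes marked all 3 cultures as alpha cells, since the median alpha-specific gene stood at 3.19 with MMS and the median a-specific gene at −2.02, with differences from the references of −0.30 and −0.41. RPO21, the large subunit of RNA polymerase II that carries the temperature-sensitive defect in strains of this kind, stood at 1.54 on both MMS arrays, against 1.78 and 1.95 in reference 1 and 1.74 and 1.86 in reference 2, and did not pass the test (adjusted p = 0.498).

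The gene with the largest rise was SRX1 (YKL086W), the sulfiredoxin that restores overoxidised peroxiredoxins. It stood at 3.19 and 3.24 on the MMS arrays, against −1.73 and −1.77 in reference 1 and −1.30 and −1.41 in reference 2. That put it near the bright end of the array with MMS and among the dim genes in both references. The difference was 4.77 (27.3-fold, standard error 0.25, 1 culture against 2, adjusted p = 4.13e-08). TSA2 (YDR453C), a cytosolic peroxiredoxin, stood at 1.52 and 1.48 with MMS, against −1.61 and −1.62 in reference 1 and −1.42 and −1.54 in reference 2, a difference of 3.04. PRX1, the mitochondrial peroxiredoxin, rose by 1.29 (adjusted p = 0.00709). These were the 3 called members of 11 peroxiredoxin and thioredoxin genes. The list median was −0.10, but 0.35 after quantile normalization and 0.37 after cyclic loess, so its sign depended on the scaling. The list is bright (median level 2.94 with MMS), and the brightest eighth of all genes had a median difference of −0.445. The abundant housekeeping members TSA1 and AHP1 stood at −0.33 and −0.12 without passing the test, as did TRX1 at −0.45 and TRX2 at −0.10 (chosen here after their values were seen).

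Of 23 glutathione genes 4 rose and 0 fell. GTT2 (YLL060C), a glutathione S-transferase, had levels of 2.08 and 2.03 with MMS, against −0.88 and −0.91 in reference 1 and −0.88 and −0.96 in reference 2. The references differed by 0.024 for this gene, and the rise was 2.96 (7.79-fold, standard error 0.24, adjusted p = 1.91e-06). ECM4, an omega-class glutathione transferase, rose by 2.92, GPX2, a glutathione peroxidase, by 1.84, and GSH1, the enzyme of the rate-limiting step of glutathione synthesis, by 1.44 (adjusted p = 0.00251). The list median was 0.06. Among 6 catalase and dismutase genes CCP1, the mitochondrial cytochrome c peroxidase, was the 1 that rose, by 1.34 (adjusted p = 0.00376). CTT1, the cytosolic catalase, stood at −0.01.

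Of 17 reductase genes 7 rose and 0 fell, with a median of 0.44 (0.79 after cyclic loess). FRM2 (YCL026C-A), a nitroreductase-like enzyme, stood at 2.30 and 2.33 with MMS, against −1.95 and −1.94 in reference 1 and −1.64 and −1.66 in reference 2. HBN1, its neighbour and relative, had 1.72 and 1.73 with MMS, against −0.49 and −0.57 in reference 1 and −0.94 and −1.09 in reference 2. OYE3 (YPL171C), an NADPH-dependent old yellow enzyme, stood at 1.93 and 2.02 with MMS, against −1.44 and −1.48 in reference 1 and −1.66 on both arrays of reference 2. Its paralogue OYE2 differed by 0.34 and was not called. The differences were 4.11 for FRM2 (17.3-fold, adjusted p = 7.76e-08), 3.54 for OYE3 (11.6-fold) and 2.50 for HBN1. Aryl-alcohol dehydrogenase genes split: AAD4 rose by 3.26 on a probe set shared with another gene copy and AAD6 by 2.73, while AAD3, AAD10 and AAD14 stood at 0.80, 0.42 and 0.06 without a call. GRE2, a methylglyoxal reductase, rose by 2.36 and ZTA1, a quinone reductase of the zeta-crystallin family, by 1.44. ZTA1 stood 1.91 above reference 1 and 0.975 above reference 2, with reference 1 minus reference 2 at −0.937. ADH6 and ADH7, NADPH-dependent alcohol dehydrogenases, were not called, at −0.16 and −0.27.

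FLR1 and ATR1, plasma membrane multidrug transporters of the major facilitator family, were the 2 called among 21 drug transporter genes, whose median was −0.05. FLR1 (YBR008C) had 2.83 and 2.85 with MMS, against 0.48 and 0.47 in reference 1 and −0.58 and −0.56 in reference 2. The references thus differed by 1.05 for FLR1, and the rise was 2.36 against reference 1 and 3.41 against reference 2. ATR1 (YML116W) had 2.62 and 2.68 with MMS, against −0.36 and −0.30 in reference 1 and 0.04 and 0.09 in reference 2, a rise of 2.78. SSU1 (YPL092W), the sulfite exporter, stood at 3.22 on both MMS arrays, against 0.64 and 0.72 in reference 1 and 0.40 and 0.46 in reference 2, a rise of 2.67 (6.34-fold). Other members of the 31 sulfur and methionine genes that rose were STR2 (1.56), MET16 (1.14) and MUP3 (1.00), enzymes of cysteine synthesis and sulfate reduction and a methionine permease. SAM1, an S-adenosylmethionine synthetase, fell by 1.11, and the list median was −0.14, which became 0.005 after quantile normalization and after cyclic loess.

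Genes with no assigned place in these lists were also among the largest rises. YIL165C, annotated as a nitrilase-like reading frame, and its neighbour NIT1 rose by 2.81 and 2.10. For YIL165C the levels were 2.34 and 2.35 with MMS, against −0.86 and −0.87 in reference 1 and −0.10 and −0.03 in reference 2. YCR102C, YLR460C and YML131W, all dehydrogenase- or reductase-like, rose by 2.66, 2.33 and 2.13. CIS1 rose by 2.63, and RTK1, a putative protein kinase gene, by 2.44. NIT1, YLR460C, YML131W and RTK1 are named after their values were seen. In all, 51 of the 94 higher genes belonged to none of the 58 lists, which together held only 1388 of the 5449 genes. YAP1 itself stood at 1.53 and 1.54 with MMS, against 0.76 and 0.73 in reference 1 and 0.77 and 0.75 in reference 2, a difference of 0.78 that missed the threshold (adjusted p = 0.0875). CIN5, a factor of the same bZIP family, rose by 1.51 (adjusted p = 0.00282). It was the 1 called gene of 24 stress regulators in limma (6 higher and 0 lower at an unadjusted p under 0.05). The list median was 0.07, with 8 clear of both references on the high side and 3 on the low side, beside 12.7% and 33.2% over all genes.

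**Figure D3:**
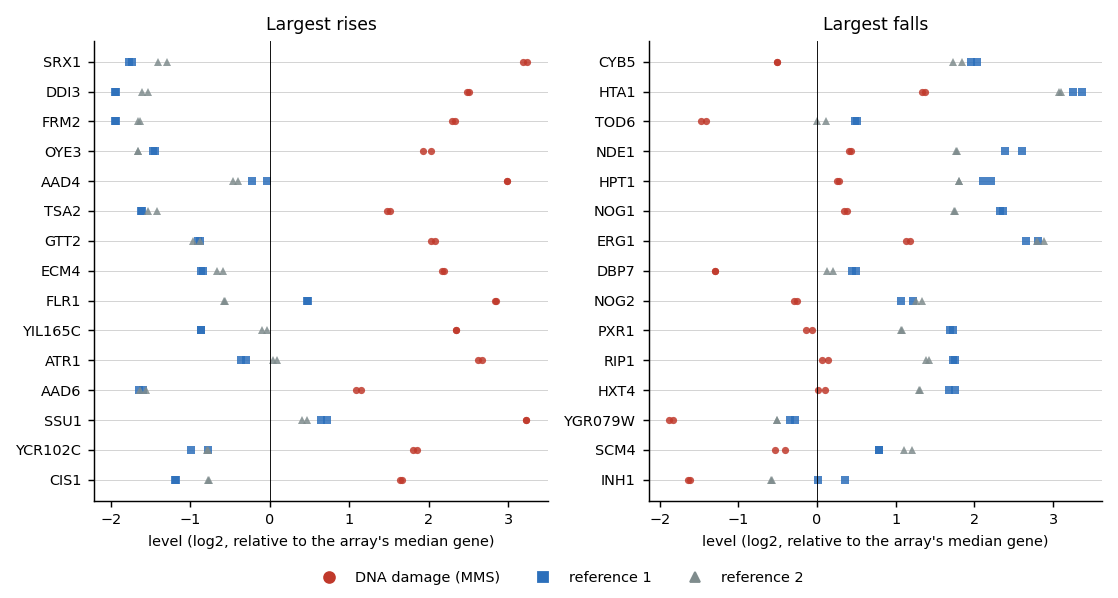
Levels on each of the 6 arrays, in log2 relative to the array's median gene, for the 15 largest rises (left) and 15 largest falls (right) that were called and clear of both references; red circles are MMS arrays, blue squares reference 1 and grey triangles reference 2. The choice of genes sets the MMS points apart from the reference points in every row. The differences run from SRX1 (4.77) to CIS1 (2.63) on the left and from CYB5 (−2.40) to INH1 (−1.43) on the right.

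Of 28 iron genes 5 rose and 0 fell, and the median was 0.39 (0.41 against reference 1, 0.25 against reference 2). TIS11 (YLR136C), an RNA-binding protein that promotes decay of mRNAs of iron-using proteins when iron is short, had 0.87 and 0.79 with MMS, against −2.25 and −2.21 in reference 1 and −1.20 and −1.11 in reference 2. ISU2 (YOR226C), a scaffold on which mitochondrial iron-sulfur clusters are built, had 3.13 and 3.21 with MMS, against 0.63 and 0.83 in reference 1 and 0.57 and 0.56 in reference 2. MRS4 (YKR052C), a mitochondrial iron carrier, had 1.81 and 1.82 with MMS, against −0.74 and −0.65 in reference 1 and −0.35 and −0.42 in reference 2. These 3 were the largest called rises of the list, so their separation from both references follows largely from that choice. Over all genes 12.7% were clear of both references on the high side. The references differed by 1.08 for TIS11. The rises were 2.53 for TIS11, 2.52 for ISU2 (5.74-fold, adjusted p = 1.05e-05) and 2.36 for MRS4 (5.12-fold). ARN1, a siderophore transporter, rose by 1.83 and FIT2, a cell wall mannoprotein that retains siderophores, by 1.67.

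The main iron uptake genes at the cell surface were not called. FET3 and FTR1, the high-affinity iron oxidase and permease, stood at −0.18 and −0.45, the reductase genes FRE1, FRE2 and FRE3 at 0.10, −0.29 and 0.04, and FIT1 at −0.31, none with a call. HMX1, the haem oxygenase, stood at −0.29. Against reference 1 FIT3 and ARN2 stood at 1.20 and 1.22, but against reference 2 at 0.07 and 0.23.

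Genes for building iron-sulfur clusters were gathered in a list of 31 after these values had been seen, so its counts describe and support nothing. Of 30 measured, 7 rose and 0 fell, with a median of 0.16. IBA57 and ISA2, which act late in mitochondrial cluster assembly, rose by 1.76 and 0.97. NBP35, DRE2, TAH18 and LTO1, all of the cytosolic assembly pathway, rose by 1.14, 1.18, 1.01 and 1.54. For LTO1 (YNL260C) the levels were 0.39 and 0.43 with MMS, against −1.03 and −1.05 in reference 1 and −1.19 and −1.25 in reference 2. Further cytosolic members NAR1 (0.88), CFD1 (0.77) and CIA2 (0.65) were clear of both references on the high side without passing the test. On the low side BOL3 (−0.63), YAE1 (−0.455) and JAC1 (−0.33) were clear, also without passing. In the list 15 were clear on the high side and 4 on the low side, beside 12.7% and 33.2% over all genes. The cysteine desulfurase NFS1 stood at 0.12, the frataxin YFH1 at −0.10 and ISU1, the paralogue of ISU2, at 0.34. In a second such list, of 13 iron regulators and carriers, 5 rose: FMP23 (2.61), TIS11, MRS4, MMT1 (2.07), a mitochondrial metal transporter, and AFT2 (1.00, adjusted p = 0.0302). AFT1 stood at 0.02.

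Of the list of base repair and alkylation-response genes 3 of 12 measured members rose and 0 fell, with a median of 0.03, and of these 3 only MAG1 encodes a DNA repair enzyme. DDI3 (YFL061W), a cyanamide hydratase known to be induced by MMS, stood at 2.51 and 2.48 with MMS, against −1.94 and −1.95 in reference 1 and −1.62 and −1.53 in reference 2. The probe set is shared with its copy DDI2, so the rise of 4.26 belongs to both. MAG1 (YER142C), the glycosylase that removes methylated adenine, had 0.52 and 0.56 with MMS, against −0.91 and −0.93 in reference 1 and −0.56 and −0.55 in reference 2. DDI1 (YER143W), a ubiquitin-binding protease whose gene shares an intergenic region with MAG1, had 0.71 and 0.56 with MMS, against −0.62 and −0.64 in reference 1 and −0.60 and −0.52 in reference 2. Both of these neighbours stood above the median gene with MMS and below it in each reference. They rose by 1.28 (2.42-fold, adjusted p = 0.00831) and 1.23 (2.34-fold, adjusted p = 0.00753).

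The other 9 members were not called. NTG1, a glycosylase and lyase for oxidised bases, stood at 0.45 and its paralogue NTG2 at −0.22. The apurinic endonucleases APN1 and APN2 stood at −0.11 and 0.09, the alkyltransferase MGT1 at 0.07, UNG1 at 0.00, OGG1 at −0.34, the flap nuclease RAD27 at −0.02 and TPA1 at −0.59.

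Ribonucleotide reductase and its regulators had 0 called of 8 in limma (1 higher and 1 lower at an unadjusted p under 0.05). RNR3, the damage-inducible large subunit, had −0.54 and −0.62 with MMS, against −1.60 and −1.63 in reference 1 and −1.12 and −1.21 in reference 2, a difference of 0.81 that was clear of both references (adjusted p = 0.104). HUG1, a small inhibitor protein induced by damage, had −0.65 and −0.64 with MMS, against −1.72 and −1.79 in reference 1 and −0.72 and −0.76 in reference 2. It stood 1.10 above reference 1 and 0.09 above reference 2. RNR1, RNR2 and RNR4, the main subunit genes, stood at 0.23, 0.00 and −0.23, and RNR4 at 0.16 after quantile normalization. SML1, the protein inhibitor of the enzyme, stood at −0.79 (adjusted p = 0.0929). None of 17 homologous recombination, 13 nucleotide excision, 16 checkpoint, 13 damage tolerance or 6 mismatch repair genes was called in limma (at an unadjusted p under 0.05, 1 checkpoint and 1 recombination gene were higher and 3 recombination genes lower). RAD54 (0.37), RAD2 (0.33), DIN7 (0.46) and the checkpoint kinase DUN1 (0.64) were above both references without passing. The recombination and checkpoint lists had medians near the −0.181 of all genes. Recombination genes had a median of −0.21, with 2 clear of both references on the high side and 6 on the low side. Checkpoint genes had −0.16, with 1 and 5, and nucleotide excision genes 0.04, with 3 and 3. Above the median difference of all genes lay 7 of 17 recombination, 9 of 16 checkpoint and 12 of 13 nucleotide excision genes. Over all genes the shares were 12.7% and 33.2%. PLM2, a damage-responsive forkhead gene, rose by 1.09 (adjusted p = 0.0209). Of 20 genes usually described as damage-inducible 5 rose and 0 fell, DDI3, DDR2 (2.03), MAG1, DDI1 and PLM2, and the list median was 0.48.

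**Figure D4:**
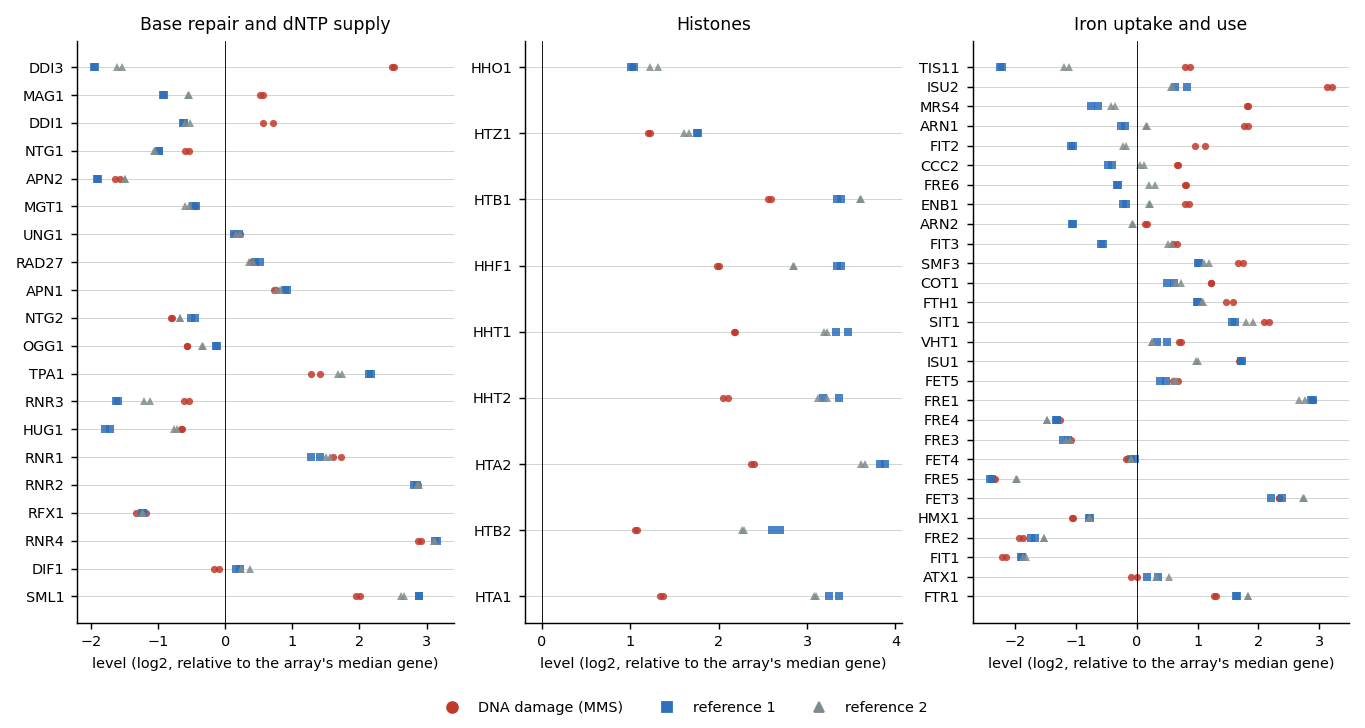
Levels on each of the 6 arrays, in log2 relative to the array's median gene, for base repair, alkylation-response and ribonucleotide reductase genes (left), histone genes (middle) and iron genes (right); red circles are MMS arrays, blue squares reference 1 and grey triangles reference 2. All histone genes except HHO1 in the middle panel have MMS points left of all reference points, while DDI3, MAG1 and DDI1 on the left and TIS11, ISU2, MRS4, ARN1 and FIT2 on the right have them to the right.

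Of 9 measured histone genes 6 fell and 0 rose, and the list median was −1.12 (−1.22 against reference 1, −1.03 against reference 2, with 0.19 between the references). HTA1 (YDR225W), a histone H2A gene, had 1.37 and 1.34 with MMS, against 3.25 and 3.36 in reference 1 and 3.08 and 3.10 in reference 2. HTB2 (YBL002W), a histone H2B gene, had 1.05 and 1.08 with MMS, against 2.60 and 2.69 in reference 1 and 2.29 and 2.27 in reference 2. The H3 genes HHT1 and HHT2 had 2.17, 2.18 and 2.05, 2.11 with MMS, against 3.18 to 3.46 over the reference 1 arrays and 3.12 to 3.23 over those of reference 2. All these levels were bright, and the MMS values were below every reference array. The falls were 1.85 for HTA1 (3.60-fold, standard error 0.24, adjusted p = 0.000262), 1.40 for HTB2, 1.36 for HTA2, 1.14 for HHT2, 1.12 for HHT1 and 1.11 for HHF1, of which HTA2 and HHF1 were read on shared probe sets. HTB1 stood at −0.91 and missed the threshold (adjusted p = 0.0536).

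Neither the variant nor the linker histone gene was called. HTZ1, the H2A.Z variant, stood at −0.48 (adjusted p = 0.298) and the linker histone HHO1 at −0.12 (adjusted p = 0.805). The list median was −0.82 after quantile normalization and −0.73 after cyclic loess, where none of the 6 kept its call. Histone genes lie among the brighter genes, whose median difference was lowest. In a bulk culture, fewer cells in S phase and less histone mRNA per cell cannot be told apart. Of 27 genes of the G1 to S transition 2 fell, CLN2 by 0.97 and YOX1 by 1.07, a cyclin and a homeodomain repressor, with a list median of −0.24. The G2 to M list had 0 called of 16 in limma (4 lower at an unadjusted p under 0.05) and a median of −0.41. For M to G1 it was 0 of 14 (3 lower unadjusted, median −0.18) and for replication licensing 0 of 11 (0 unadjusted, median −0.26).

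CYB5 (YNL111C), cytochrome b5, which passes electrons to enzymes of sterol and fatty acid synthesis, was the largest fall. It had −0.51 on both MMS arrays, against 1.96 and 2.03 in reference 1 and 1.73 and 1.85 in reference 2, a fall of 2.40 (5.27-fold, standard error 0.24, adjusted p = 1.81e-05). ERG1, squalene epoxidase, had 1.18 and 1.13 with MMS, against 2.65 and 2.81 in reference 1 and 2.89 and 2.79 in reference 2. Both genes were named among the largest falls clear of both references, so that separation was part of the choice. Their references were 0.205 and 0.11 apart. ERG1 fell by 1.63 (adjusted p = 0.000748), HMG1, an HMG-CoA reductase, by 1.30, and ERG5, a sterol desaturase, by 1.23. These 4 were the called members of 27 ergosterol genes, with a median of −0.56 that was −0.20 after quantile normalization. OLE1, the fatty acid desaturase, fell by 1.33 (adjusted p = 0.00411) and was the 1 called gene of 10 in fatty acid synthesis.

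Respiratory chain genes fell in 6 of 38 cases and rose in 0, with a median of −0.64 (−0.83 against reference 1 and −0.46 against reference 2, with 0.36 between the references). NDE1 (YMR145C), the external mitochondrial NADH dehydrogenase, had 0.40 and 0.43 with MMS, against 2.39 and 2.60 in reference 1 and 1.78 and 1.76 in reference 2. RIP1 (YEL024W), the Rieske iron-sulfur protein of the cytochrome bc1 complex, had 0.14 and 0.07 with MMS, against 1.72 and 1.76 in reference 1 and 1.42 and 1.38 in reference 2. The falls were 1.72 for NDE1, 1.47 for RIP1, 1.43 for INH1, an inhibitor of ATP synthase in reverse, 1.10 for CYT1, 1.02 for QCR10 and 0.93 for COX13. HAP4, an activator of respiratory genes named after its value was seen, fell by 0.95 (adjusted p = 0.0393). RIP1 was also a 5′ and 3′ control mRNA, with a 5′ minus 3′ value of −0.584 with MMS, against −0.323 in reference 1 and −0.433 in reference 2. In limma, mitochondrial ribosomal protein genes had 0 called of 73 (2 higher and 1 lower unadjusted) and a median of −0.04, and the citric acid cycle 0 of 16 (5 lower unadjusted) and −0.37, which was −0.06 after cyclic loess.

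Ribosome assembly genes had lower medians with MMS, and the references also differed there. Of 71 genes for the large subunit 7 fell, of 69 for the small subunit 5, of 17 nucleolar and small nucleolar RNP genes 5 and of 14 RNA polymerase I genes 2, and none rose. The list medians were −0.68, −0.69, −0.68 and −0.64. Against reference 1 they were −0.96, −0.94, −0.93 and −0.87, and against reference 2 they were −0.41, −0.40, −0.51 and −0.49. Reference 1 stood above reference 2 by a median of 0.59, 0.54, 0.51 and 0.39, so the distance between untreated cultures was as large as, or close to, the distance of MMS from reference 2. On the low side 21 of 71 large subunit and 22 of 69 small subunit assembly genes were clear of both references, which is near the share over all genes (33.2%). For nucleolar and small nucleolar RNP genes it was 8 of 17 and for RNA polymerase I genes 7 of 14, both above that share in short lists.

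Some single genes fell by more than the references differed. NOG2, DBP7, NOG1, PXR1 and TOD6 were named among the largest falls clear of both references, so that separation was part of the choice. NOG2 (YNR053C), a GTPase of large subunit export, had −0.29 and −0.26 with MMS, against 1.06 and 1.22 in reference 1 and 1.33 and 1.26 in reference 2, a fall of 1.49 with references 0.15 apart. DBP7 (YKR024C), an RNA helicase, had −1.30 on both MMS arrays, against 0.50 and 0.45 in reference 1 and 0.12 and 0.20 in reference 2, a fall of 1.62 (adjusted p = 0.00115). NOG1, a nucleolar GTPase, fell by 1.68 and PXR1 by 1.49. TOD6 (YBL054W), a repressor that binds the promoters of ribosome assembly genes, had −1.48 and −1.42 with MMS, against 0.51 and 0.48 in reference 1 and −0.005 and 0.12 in reference 2. TOD6 fell by 1.72 (3.30-fold, adjusted p = 0.000906). RPC19, shared by RNA polymerases I and III, fell by 1.25 and RPA12 by 1.26.

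Cytosolic ribosomal protein genes themselves had 3 called of 127, beside 1.63% called lower over all genes. These 3 were RPS28B (−1.33), RPS10B (−1.04, shared probe set) and RPL36A (−0.92). The list median was −0.51, but −0.02 after quantile normalization and 0.01 after cyclic loess. Glycolysis and fermentation genes had 0 called of 18 in limma (5 lower unadjusted) and a median of −0.48 that likewise became 0.01 and 0.07. Both groups are among the brightest on the array, and no direction is given for them. Of 17 hexose transporter genes 3 fell, HXT4 by 1.45, HXT7 by 1.32 on a shared probe set and HXT2 by 1.04. HXT7 stood at −1.76 against reference 1 and −0.884 against reference 2, with 0.876 between the references. HPT1, the purine salvage phosphoribosyltransferase, fell by 1.72 (adjusted p = 0.000741) and FUR4, the uracil permease, by 1.35.

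Among protein turnover genes, the ubiquitin system list leaned higher with MMS. Of 24 ubiquitin system genes 4 rose and 0 fell in limma (11 higher and 1 lower at an unadjusted p under 0.05), and the median was 0.32. In this list 12 were clear of both references on the high side and 3 on the low side, beside 12.7% and 33.2% over all genes. DDI1 led, followed by DOA4 (1.10), a ubiquitin hydrolase, TMC1 (1.09), a zinc finger protein linked to the proteasome, and UFD1 (0.93), a Cdc48 cofactor. Proteasome genes had 0 called of 36 in limma (0 at an unadjusted p under 0.05) and a median of −0.03. That median was 0.30 after quantile normalization and 0.33 after cyclic loess, and 30 of the 36 lay above the median difference of all genes. RPN4, the activator of proteasome genes, had 2.23 and 2.20 with MMS, against 2.11 and 2.05 in reference 1 and 1.04 and 1.03 in reference 2. It stood 0.14 above reference 1 and 1.19 above reference 2, and the distance of 1.05 between the references exceeded the nearer gap.

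Of 34 general stress genes 3 rose and 0 fell with a median of 0.00: DDR2 by 2.03 (adjusted p = 0.000642), SDS24 by 1.23 and GPD1 by 1.42. GPD1, glycerol-3-phosphate dehydrogenase, had 1.85 and 1.84 with MMS, against −0.20 and −0.19 in reference 1 and 1.09 and 1.04 in reference 2, so the references lay farther apart than MMS and reference 2. Trehalose and glycogen genes had 3 of 20 called, TSL1 (1.47), TPS2 (1.20) and GLC3 (1.08), with a median of 0.43 against reference 1 and 0.06 against reference 2. Of 31 chaperone genes HSP30, a plasma membrane protein, rose by 2.02 (adjusted p = 0.00408). It stood 1.42 above reference 1 and 2.63 above reference 2, with 1.21 between the references. The chaperone list median was −0.28, but −0.03 after quantile normalization and 0.01 after cyclic loess. Amino acid genes under Gcn4 had ORT1 (1.22) and ARG3 (1.03) called of 59, both of arginine synthesis, beside 1.73% called higher over all genes. The list median was −0.17, but 0.20 after quantile normalization.

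**Figure D5:**
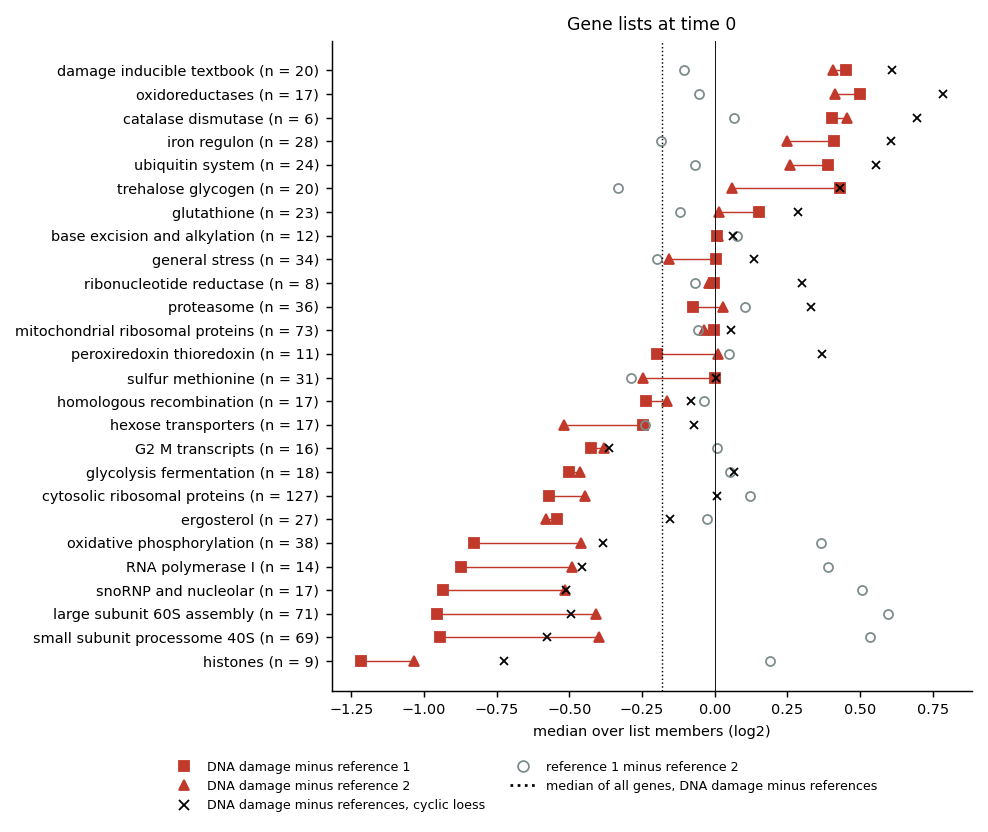
Medians over the members of 26 gene lists in log2: MMS minus reference 1 (red squares), MMS minus reference 2 (red triangles), MMS minus references after cyclic loess (crosses) and reference 1 minus reference 2 (open circles); the dotted line is the median of all genes at −0.181. Histones lie at −1.22 and −1.03 with 0.19 between the references, while the ribosome assembly lists show distances between the references of 0.51 to 0.59.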

How the data were processed

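The deposited values are on a log2 scale, 1 per probe set, and came from RMA (submitters' processing notes). The RMA version, and which arrays went into 1 normalization, are not given in the sources. Of 5900 probe sets, 5498 had 1 gene in the platform annotation, 0 several and 402 none; all 5498 matched a RefSeq yeast gene, and the brightest probe set stood for each of 5449 genes (114 on probe sets shared with other copies). No genome or sequence table was used, so no coordinates, sequences or promoter motifs are given. Deposited array medians were 12.33 and 12.35 (MMS), 12.19 and 12.63 (reference 1) and 12.37 and 12.23 (reference 2).

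Each array was centred on its median gene and the 2 technical arrays of a culture were averaged. limma 3.58.1 in R 4.3.3 (lmFit, eBayes, Benjamini-Hochberg over all genes) compared 1 MMS culture with 2 references. The references gave 1 residual degree of freedom (prior 13.9), and the MMS culture was assumed to vary like them. Nothing in the labels states separate experiments, so p-values measure only the spread between these cultures. The number of cultures limits the precision. The script was tested on simulated data.

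Named genes were the 15 largest called rises and falls clear of both references, up to 3 leading called genes per list, all base repair and alkylation-response, ribonucleotide reductase and histone genes and a few fixed ones; the text says where a gene was added, and members listed without a call illustrate their list. Members and lists were chosen with earlier results of these data known. Absent-target control probe sets stood at −2.51 and −2.53 with MMS, −2.37 and −2.40 in reference 1 and −2.01 and −2.03 in reference 2. Both references lay within 0.5 of them for 5 higher genes (DDI3 and FRM2 among them), as did MMS for 3 lower genes, so those folds are not exact. Alternatives were other scalings, a filter on low values, the mean of probe sets, an intensity trend, arrays as replicates, each array left out and each reference alone. Cyclic loess and the zero median difference were chosen after seeing the data. The other 31 arrays were not used.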

Additional observations from a re-analysis of the deposited data

How the results depend on the processing

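Counts of higher and lower calls (94 and 89) were 108 and 139 on values as deposited, 0 and 0 after quantile normalization, 57 and 10 with spike-in scaling, 53 and 26 with the filter (3918 genes tested), 204 and 491 with an intensity trend, and 1295 and 3279 with technical arrays as replicates, a fit that also separated the references in 1773 and 2147 genes. Cyclic loess gave 22 and 1, and a median difference set to 0 gave 159 and 46, both chosen after seeing the data. The cause was not tested. Leaving out each array in turn gave 49 to 96 higher and 24 to 93 lower calls. Genes clear of both references (691 higher, 1810 lower) numbered 1132 higher after quantile normalization, 1196 and 1122 after cyclic loess, 1366 and 1010 with the median difference at 0, and 938 lower with spike-in scaling. Leaving out each array gave 683 to 706 and 1750 to 1845. Of the 107 named genes, 80 were called and none changed sign with a call under the alternatives run; each reference alone turned no called gene. No paired analysis was possible because the numbers shared by the groups mark technical arrays of single cultures, which were averaged. Promoter motifs were not run, since no promoter table was used here. With 1 MMS culture, a difference of that culture unrelated to MMS cannot be told apart from its effect.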

Other observations

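Genes outside the lists that were called, named after their values were seen, included several enzymes and membrane proteins. RIB1, the first enzyme of riboflavin synthesis, had 2.25 and 2.19 with MMS, against 0.30 and 0.38 in reference 1 and 0.42 and 0.46 in reference 2, and rose by 1.83 (adjusted p = 0.000259). APE1, the vacuolar aminopeptidase carried by the cytoplasm-to-vacuole pathway, rose by 1.63 (adjusted p = 0.0009). AIF1, a mitochondrial cell death factor homologue, rose by 1.37, RPM2, the protein subunit of mitochondrial RNase P, by 1.72, and NAB2, a nuclear poly(A)-binding protein, by 1.04. IFH1, a coactivator of ribosomal protein genes, fell by 0.95, HMT1, an arginine methyltransferase, by 1.24 and FUI1, the uridine permease, by 1.31. YKL070W had −0.35 and −0.27 with MMS, against −2.25 and −2.35 in reference 1 and −1.99 on both arrays of reference 2, which is near the absent-target controls.

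Several genes differed between the references by more than most called genes differed with MMS. The references were more than 2 log2 apart in 11 genes, against 42 for MMS and reference 1 and 28 for MMS and reference 2. Hypoxic genes had a median of 0.17 against reference 1 and −0.29 against reference 2, with −0.71 between the references and 0 of 15 called in limma (2 lower at an unadjusted p under 0.05). Mating pheromone genes had 0.15 and −0.28, with −0.46 between the references and 0 of 31 called in limma (2 higher unadjusted).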
